A study of Sus scrofa with 35 samples.

Results

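CIRBP and RBM3 are the cold-inducible RNA binding proteins, and their transcripts were searched for on one-colour arrays of whole blood from 35 castrated male growing pigs. A probe was taken as a member when the scanner files named it CIRBP or RBM3. This found 2 probes among 60306 probe spots, and both carried the name CIRBP, so that 1 of the 2 genes was measured, of 11906 gene symbols on the array. No probe carried the name RBM3, and none carried one of the 8 RefSeq accessions that the pig gene table lists for it, so RBM3 was not analysed here. The pigs were Creole (CR), Large White (LW) or F1 pigs of the cross between these breeds. Thermoneutral (TN) pigs lived at 24 °C, and heat stress (HS) pigs were exposed for 5 d, or 1 d less for some pigs by the methods of the study, to a temperature that the sample labels give as 30 °C and the protocol as 32 °C. Each group held 6 pigs, except CR TN with 5 pigs. TN pigs were slaughtered before the temperature was raised, so climate and date of slaughter cannot be told apart, and the pigs of a group were separate animals. By the methods of the study, litters of a breed were divided over its pens, so that littermates occur in both climates, and the labels do not give the litter.

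Both proteins bind RNA through a single RNA recognition motif followed by a stretch rich in arginine and glycine. Their transcripts are known to increase when cells are cooled by a few degrees and to decrease when cells are warmed. CIRBP acts on the stability, translation and choice of poly(A) site of other transcripts, among them those of the circadian clock. Outside the cell the protein acts as a danger signal on myeloid cells.

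The probes are shown first because they did not behave alike. The named probes were A_72_P081791 and O7574, each 60 bases long. A further pair of probes of the array were tied to CIRBP after the files had been looked at, and they are kept apart from the named ones. A_72_P387123 carries the name LOC100522851, which is the gene ID of CIRBP in the pig RefSeq table. A_72_P285464 carries no gene symbol and shares a run of 59 bases with O7574, so that these probes are in effect 1 measurement. A stretch of 30 bases of each probe is given 5′ to 3′, with the hexamer AATAAA, the usual poly(A) signal, in capitals.
A_72_P081791: gtgccatctgtttttgaggattttgaacat
O7574: aagtcacgtttgAATAAAgggatggtgtgt
A_72_P285464: aagtcacgtttgAATAAAgggatggtgtgt
A_72_P387123: aaatcacacttgAATAAAgggatggcatgt
The stretches are bases 1 to 30 of A_72_P081791, 21 to 50 of O7574, 20 to 49 of A_72_P285464 and 30 to 59 of A_72_P387123. On the strand of the probe, AATAAA occurred in 10.26% of the 60305 distinct probes of the array (14.15% on either strand). O7574 and A_72_P387123 were alike around this hexamer, with 25 of the 30 bases identical and 5 different, but over all 51 bases that overlap in this alignment only 34 were identical. Their longest shared run was 16 bases. The accession given for O7574 was not among the 38 RefSeq accessions of pig CIRBP in the gene table. A_72_P081791 had no shared run above 6 bases with any of the other 3 probes. Which CIRBP transcript each probe binds was not analysed here.

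All 4 probes were well above background on 35 of 35 arrays, with no saturated or outlier spot. The distance from background differed. The spot intensity of A_72_P387123 ranged from 1045 to 6466.5 over a local background of 15 to 21. That of A_72_P081791 ranged from 85 to 510.5 over a background of 15 to 23. For O7574 the intensity was 40 to 86.5 over a background of 15 to 25, and for A_72_P285464 it was 47 to 82 over 15 to 27. The values below are the authors' quantile-normalized log2 intensities. As a property of the arrays, the 75th percentile of the processed intensity lay between 112 and 329, the share of probes well above background varied between 55.2% and 68.0%, and the correlation between arrays was at least 0.906.

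Probe A_72_P081791 was higher in HS pigs in the fit over all breeds. The 5 CR TN pigs had log2 intensities of 7.25, 7.38, 7.54, 7.82 and 8.33, and the 6 CR HS pigs ranged from 7.62 over a median of 8.06 to 8.33. The F1 TN pigs ranged from 6.70 (median 7.07) to 7.61, against 7.26 (median 7.93) to 8.19 in F1 HS pigs. The LW TN pigs ranged from 7.05 (median 7.60) to 8.54, and the LW HS pigs from 7.53 (median 7.63) to 7.80. HS and TN pigs overlapped in each of the 3 breeds. In total, 13 of 18 HS pigs lay above the TN mean of their breed, namely 5 of 6 CR, 6 of 6 F1 and 2 of 6 LW pigs. With breed in the model, the log2 difference of HS minus TN was 0.33 ± 0.12 (SE, 17 TN and 18 HS pigs), or 1.26-fold, with a 95% interval of 0.08 to 0.58 and an adjusted p of 0.0347 (limma, Benjamini-Hochberg over all probes). It was 1 of the 2 named probes that passed. Of all 39072 probes tested, 34.8% passed for HS minus TN (20.1% higher and 14.7% lower), with a median log2 difference of 0.06, so a count of 1 of 2 is no result about CIRBP in itself. The fits here treat pigs as independent, whereas the mixed model of the study held pen, slaughter day and parents. With that model the study reported far fewer blood probes past its threshold. The effect of this on the CIRBP calls was not tested. In bulk blood, a change in the number of cells of a type and a change in RNA per cell cannot be told apart.

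**Figure D1:**
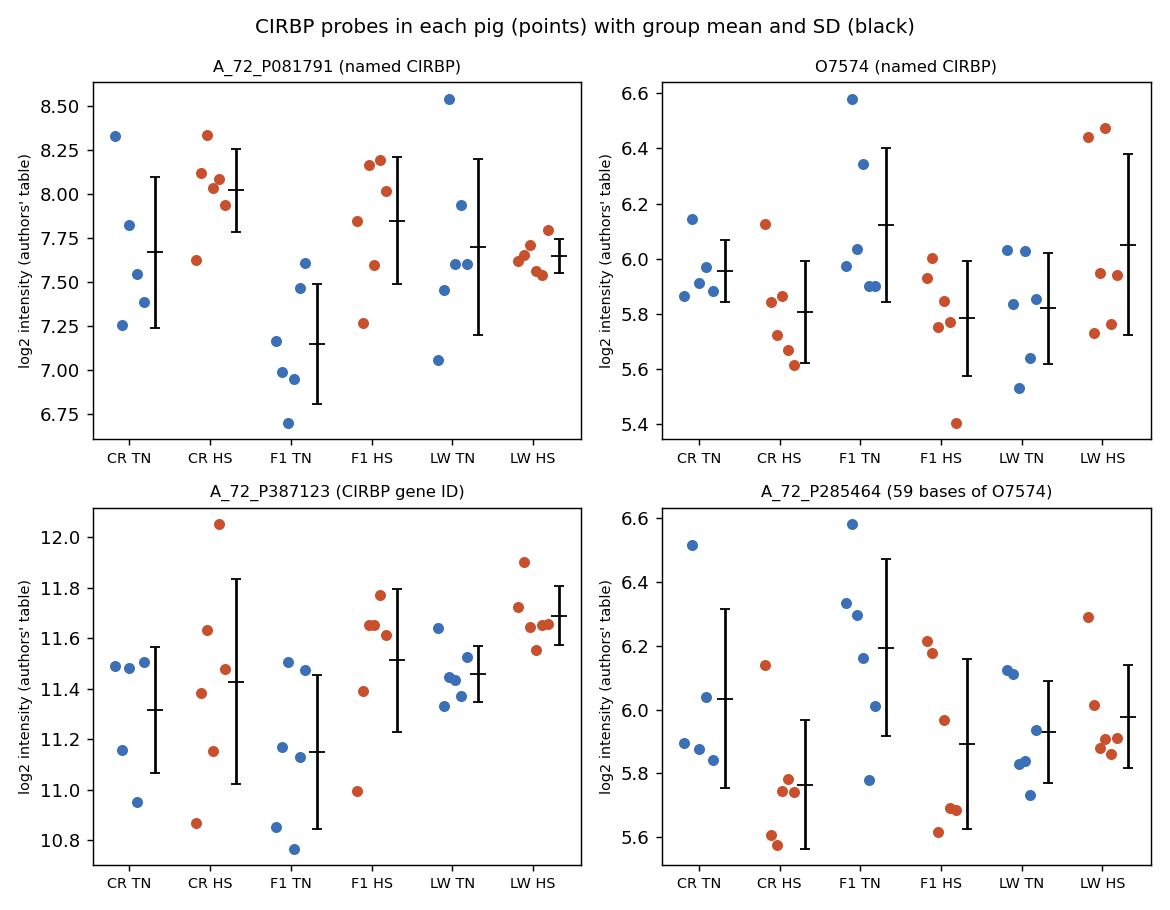
Authors' log2 intensity (y axis, a separate scale in each panel) of the 4 CIRBP probes in every pig, by breed and climate (x axis; blue TN, red HS). Black bars give the mean and SD of 5 or 6 pigs; for A_72_P081791 the F1 TN pigs sit lowest, at a mean of 7.14, while the 6 LW HS pigs lie between 7.53 and 7.80.

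Probe A_72_P387123, the further probe with the gene ID of CIRBP, was also higher in HS pigs. The CR TN pigs had 10.95, 11.15, 11.48, 11.49 and 11.51, and the CR HS pigs ranged from 10.87 (median 11.43) to 12.05. In F1 pigs the range was 10.77 (median 11.15) to 11.50 in TN and 10.99 (median 11.63) to 11.77 in HS. LW TN pigs lay between 11.33 and 11.64 (median 11.44), and LW HS pigs between 11.55 and 11.90 (median 11.65). All 6 LW HS pigs were above the LW TN mean, and 5 of them above every LW TN pig. The groups overlapped in each breed, and 15 of 18 HS pigs were above the TN mean of their breed. The log2 difference was 0.24 ± 0.09 (SE), or 1.18-fold, with a 95% interval of 0.06 to 0.42 and an adjusted p of 0.0361 (limma).

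Probe O7574 went the other way in F1 pigs and showed no difference past the threshold over all pigs. The CR TN pigs had 5.87, 5.88, 5.91, 5.97 and 6.14, and the CR HS pigs ranged from 5.61 (median 5.78) to 6.13. F1 TN pigs ranged from 5.90 (median 6.005) to 6.58 and F1 HS pigs from 5.40 (median 5.81) to 6.001. LW TN pigs ranged from 5.53 (median 5.84) to 6.03 and LW HS pigs from 5.73 (median 5.94) to 6.47. None of the 6 F1 HS pigs was above the F1 TN mean, against 4 of 6 in LW. The log2 difference of HS minus TN over all breeds was -0.08 ± 0.09 (SE), with a 95% interval of -0.26 to 0.09 and an adjusted p of 0.467. Its near copy A_72_P285464 had a difference of -0.17 ± 0.08 (adjusted p of 0.0943), with 4 of 18 HS pigs above the TN mean of their breed. It passed as lower with the slide as a block (-0.17, adjusted p of 0.0425), array weights (-0.20, adjusted p of 0.0284) and scaling on the 75th percentile (-0.39, adjusted p of 0.0480). The probes attributed to CIRBP therefore gave no single direction. The lower values rest on O7574 and A_72_P285464, which are near copies and dim. Their mean intensities lay at percentiles 22.9 and 24.1 of all probes.

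Within breeds, calls were made in F1 pigs alone, and this was so for the arrays as a whole. In F1 pigs 38.7% of all probes passed, against 0% in CR and 0% in LW pigs (3466 and 3404 probes at an unadjusted p below 0.05). In F1 pigs A_72_P081791 was higher in HS by 0.70 ± 0.20 on the log2 scale, or 1.63-fold (adjusted p of 0.00642 by limma). O7574 fell by 0.34 ± 0.14 (adjusted p of 0.0463), and by 0.86 with scaling on the 75th percentile (adjusted p of 0.0250). A_72_P387123 had a difference of 0.36 ± 0.15 (adjusted p of 0.0584) and A_72_P285464 of -0.30 ± 0.13 (adjusted p of 0.0694). The latter passed with the slide as a block (-0.36, adjusted p of 0.0105) and array weights (-0.40, adjusted p of 0.0161). In CR pigs the 4 differences were 0.35 ± 0.21 for A_72_P081791, -0.15 ± 0.14 for O7574, 0.11 ± 0.16 for A_72_P387123 and -0.27 ± 0.14 for A_72_P285464, and in LW pigs they were -0.05 ± 0.20, 0.23 ± 0.14, 0.23 ± 0.15 and 0.05 ± 0.13. None of these 8 values passed. Of the 4 probes, A_72_P387123 alone had the same sign in each breed, and it was positive.

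**Figure D2:**
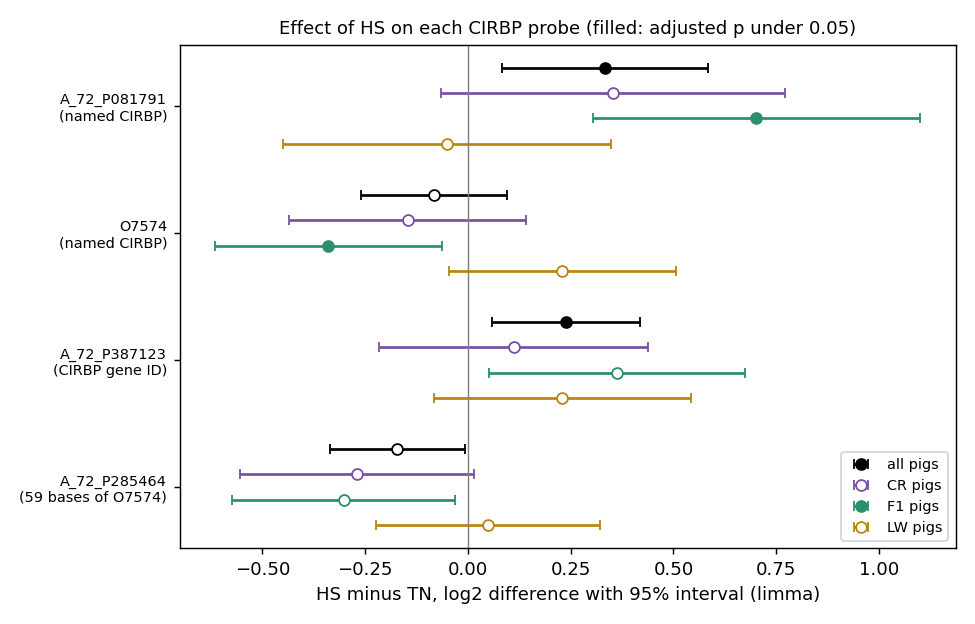
HS minus TN log2 difference with its 95% interval (x axis) for each CIRBP probe (y axis), over all pigs and by breed; filled points have an adjusted p below 0.05. A_72_P081791 reached 0.70 in F1 pigs while O7574 was at -0.34 in the same pigs.

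The effect of HS was also compared between breeds. The test of the breed by climate interaction gave F = 3.71 for A_72_P081791 (adjusted p of 0.309, limma) and F = 4.56 for O7574 (adjusted p of 0.279), and no probe of the array passed (5807 had an unadjusted p below 0.05). The HS effect in F1 pigs minus that in LW pigs was 0.75 ± 0.28 for A_72_P081791 (95% interval 0.19 to 1.32, adjusted p of 0.130) and -0.57 ± 0.19 for O7574 (-0.96 to -0.18, adjusted p of 0.122; -1.44 and 0.133 with scaling on the 75th percentile). A difference between breeds in the response of CIRBP was thus not detected after adjustment, although these intervals did not include 0. With array weights, which let arrays far from the fit count less, both passed, at 0.74 with an adjusted p of 0.0480 and -0.59 with an adjusted p of 0.0427, in a fit that called 3902 probes for this contrast against 0 without weights.

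Levels of CIRBP did not differ between breeds past the threshold for any of the 4 probes, in any of the CR minus LW, F1 minus CR, F1 minus LW and F1 minus mid-parent contrasts. These contrasts called 1.08%, 0.184%, 0.0256% and 0.0717% of all probes. The lowest unadjusted p was that of A_72_P081791 for F1 minus CR, at -0.35 ± 0.15 with an adjusted p of 0.903. By group means, A_72_P081791 was ordered as CR HS (8.02 ± 0.24, SD), F1 HS (7.85 ± 0.36), LW TN (7.70 ± 0.50), CR TN (7.67 ± 0.43), LW HS (7.64 ± 0.10) and F1 TN (7.14 ± 0.34). Of the 5 steps between neighbours, the last, of 0.50, was larger than the SD of either group. For A_72_P387123 the order was LW HS (11.69 ± 0.12), F1 HS (11.51 ± 0.28), LW TN (11.46 ± 0.11), CR HS (11.43 ± 0.41), CR TN (11.32 ± 0.25) and F1 TN (11.15 ± 0.31). No step between neighbours exceeded the larger SD of its pair. F1 TN pigs were thus lowest for both probes, and they were highest for O7574, at 6.12 ± 0.28.

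Neither call of HS minus TN was robust to the choice of pigs. Pigs are numbered within their group in the order of the sample records. Leaving out 1 pig at a time, the log2 difference of A_72_P081791 stayed between 0.29 and 0.40 but lost its call in 12 of 35 fits, namely without CR TN 2, 4 or 5, CR HS 3, F1 TN 1, 2, 3 or 4, F1 HS 3, 5 or 6, or LW TN 1, with adjusted p of 0.0503 to 0.0614. That of A_72_P387123 stayed between 0.21 and 0.27 and lost its call in 11 of 35, namely without CR TN 2 or 4, CR HS 3 or 5, F1 TN 1 or 4, F1 HS 3, 4, 5 or 6, or LW HS 2 (adjusted p of 0.0523 to 0.0653). The call of O7574 in F1 pigs was lost in 14 of 35 fits, with differences of -0.36 to -0.25 and adjusted p of 0.0501 to 0.147, namely without CR TN 3, 4 or 5, CR HS 2, F1 TN 2, 3 or 4, F1 HS 3, 4, 5 or 6, LW TN 2 or 6, or LW HS 3. That of A_72_P081791 in F1 pigs held in all 35. In F1 pigs A_72_P387123 passed without CR HS 1 or 5, F1 TN 3 or 6, or F1 HS 1 (differences of 0.36 to 0.47, adjusted p of 0.0158 to 0.0402), and A_72_P285464 without F1 TN 5 or F1 HS 1 or 2 (-0.39 to -0.36, adjusted p of 0.0225 to 0.0413). Without the F1 pigs the differences were 0.14 (adjusted p of 0.585) and 0.17 (adjusted p of 0.361), and no probe of the array passed. Both calls held with recomputed quantile values, scaling on the 75th percentile, normexp background correction, no filter or a strict filter on dim probes, the slide as a block, array weights and the mean of the 3 breed effects. Within the 5 slides, which held 4 to 8 arrays each, the plain HS minus TN difference of A_72_P081791 was 0.14, 0.49, 0.32, 0.51 and 0.21, with no correction for breed. That of A_72_P387123 was -0.04, 0.32, 0.46, 0.27 and 0.10.

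**Figure D3:**
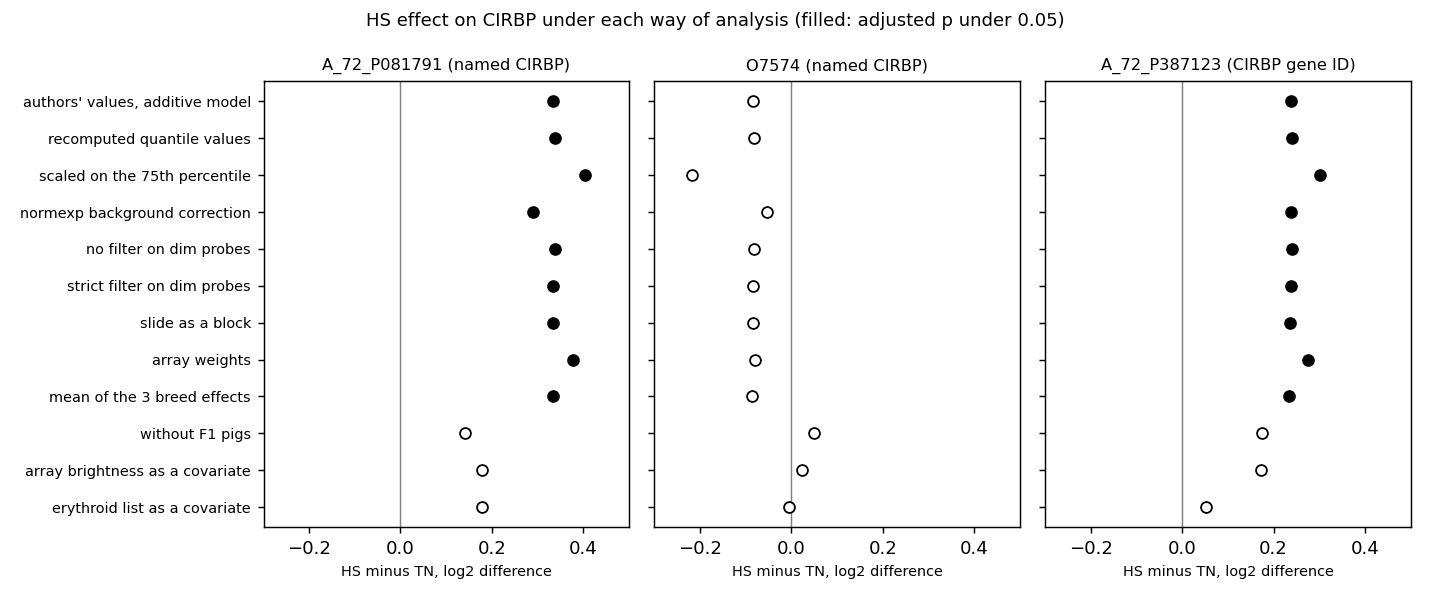
HS minus TN log2 difference (x axis) of the named probes and of A_72_P387123 under 12 ways of analysis (y axis); filled points have an adjusted p below 0.05. The calls of A_72_P081791 and A_72_P387123 were lost without F1 pigs and with array brightness or the red cell markers as a covariate.

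The brightness of the arrays moved with the groups and with the probes. The 75th percentile of the processed intensity was 112 to 186 on the 6 F1 TN arrays and 172 to 266 on the 6 F1 HS arrays, a mean of 7.21 ± 0.28 against 7.88 ± 0.24 in log2 units, while TN and HS had closer means in CR (7.78 and 7.77) and LW pigs (7.66 and 7.65). Across the 35 pigs this brightness correlated with A_72_P081791 (Pearson r = 0.70, Spearman rho = 0.64, adjusted permutation p of 8e-05 for r). It correlated negatively with O7574 (r = -0.64, rho = -0.61, adjusted p of 0.00012) and A_72_P285464 (r = -0.66, rho = -0.64, adjusted p of 8e-05), although the values had been quantile-normalized. For A_72_P387123 r was 0.43 and rho 0.32 (adjusted p of 0.0178), and r fell to 0.30 without the 2 pigs farthest from the median brightness (adjusted p of 0.128) and to 0.34 as deviations from the group means (adjusted p of 0.0730), so that its call did not hold in either setting. For the others r was 0.62, -0.49 and -0.58 without these 2 pigs. Within the 4 slides of 7 or 8 arrays, r with A_72_P081791 was 0.68, 0.91, 0.81 and 0.30, and r with O7574 was -0.63, -0.85, -0.57 and -0.56. The unadjusted permutation p for r and rho were 2e-05 and 0.00011 for A_72_P081791, 4e-05 and 0.00013 for O7574, 1e-05, the smallest that the permutations can give, and 3e-05 for A_72_P285464, and 0.00949 and 0.0649 for A_72_P387123.

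With log2 brightness as a covariate, a fit added after the data were seen, neither call held. The HS minus TN difference was then 0.18 for A_72_P081791 (adjusted p of 0.234), 0.17 for A_72_P387123 (adjusted p of 0.169) and 0.02 for O7574 (adjusted p of 0.849), and 6706 probes of the array passed. In F1 pigs A_72_P081791 dropped from 0.70 to 0.27 (adjusted p of 0.57) and O7574 moved from -0.34 to -0.04 (adjusted p of 0.923), and no probe of the array passed in F1 pigs (5805 at an unadjusted p below 0.05).

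**Figure D4:**
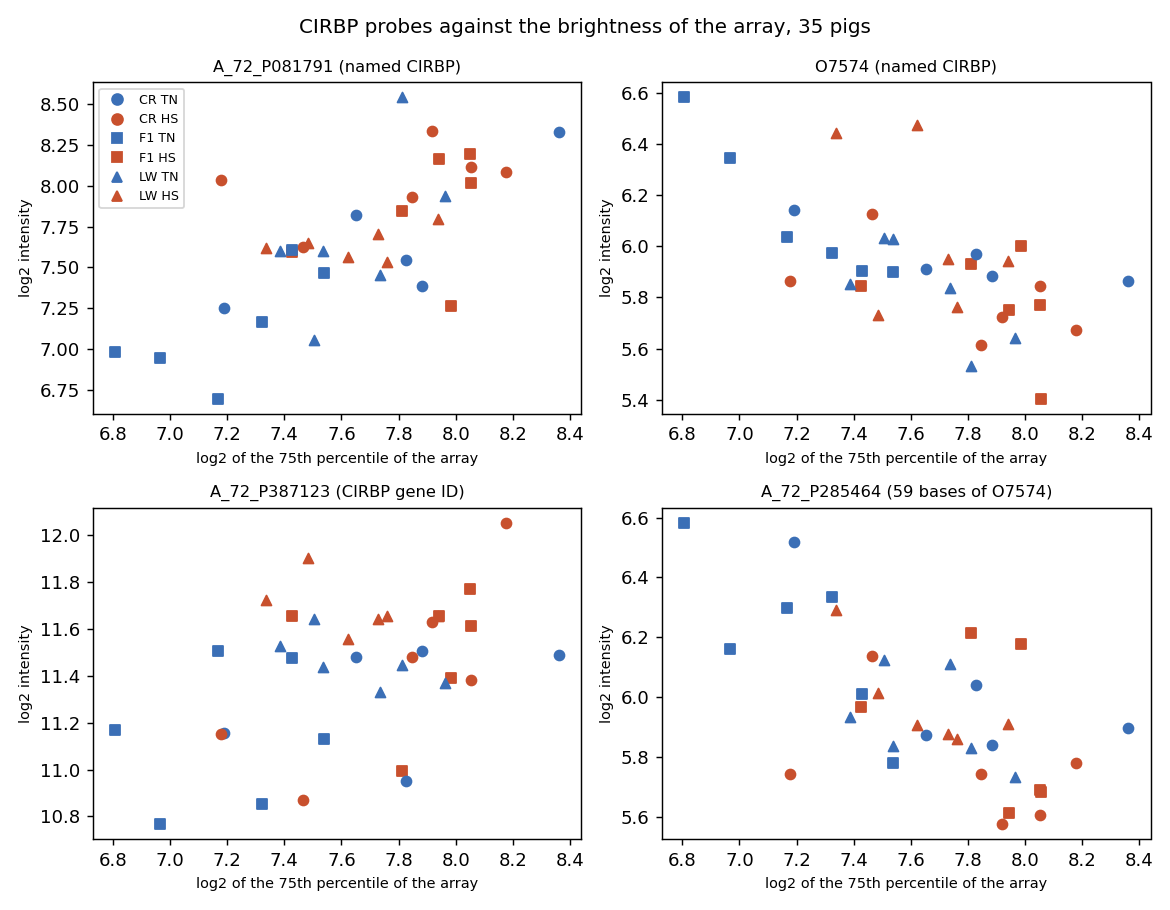
Authors' log2 intensity of each CIRBP probe (y axis, a separate scale in each panel) against the log2 of the 75th percentile of the processed intensity of its array (x axis), 1 point per pig; colour gives the climate and shape the breed. A_72_P081791 rises with brightness (r = 0.70), O7574 and A_72_P285464 fall with it (r = -0.64 and -0.66), and F1 TN arrays lie at the dim end.

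The probes attributed to CIRBP were then set against each other across pigs. A_72_P081791 and A_72_P387123 had r = 0.36 (rho = 0.32, adjusted permutation p of 0.0508), and 0.22 without the 2 farthest pigs. A_72_P081791 and O7574, both named CIRBP, had r = -0.63 (rho = -0.68, adjusted p of 8e-05), and -0.52 as deviations from the group means. Within the 4 slides of 7 or 8 arrays it was -0.23, -0.78, -0.65 and -0.65. O7574 and A_72_P285464, which share 59 bases, had r = 0.68 (rho = 0.75, adjusted p of 8e-05). The unadjusted permutation p for r and rho of these pairs were 0.0329 and 0.0613, 2e-05 and 2e-05, and 2e-05 and 1e-05. Without the 2 farthest pigs r was -0.62 and 0.69 for the last pairs named. O7574 and A_72_P387123, which are alike but not identical around the hexamer, had r = -0.36 (rho = -0.34, adjusted p of 0.0508, unadjusted permutation p of 0.0339 and 0.0457), and -0.38 as deviations from the group means (adjusted p of 0.0452). A_72_P285464 had r = -0.43 with A_72_P387123 (rho = -0.31, adjusted permutation p of 0.0178, unadjusted 0.00966 and 0.0683) and r = -0.75 with A_72_P081791 (rho = -0.73, adjusted p of 8e-05, unadjusted 1e-05 for both). Without the 2 farthest pigs the former was -0.35 with an adjusted p of 0.0746 (-0.37 and 0.0482 as deviations from the group means), and the latter -0.76. In all, 24 relations were computed and their p-values adjusted together.

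Markers of blood cell types were compared with the probes, since pigs may differ in their cell mixture. The 16 measured red cell markers had a mean log2 intensity between 9.95 and 12.09 in TN pigs and between 8.96 and 11.03 in HS pigs. Of these markers 8 were lower in HS, 1 was higher and 7 did not pass, against 14.7% lower and 20.1% higher over all probes. SPTB, 1 of the 7, had 1 of 2 probes past the threshold as lower. The median log2 difference of the 16 markers was -0.70. The largest were CA1, carbonic anhydrase 1 (-1.41 ± 0.35, adjusted p of 0.00342 by limma), TFRC, the transferrin receptor (-1.11 ± 0.43, adjusted p of 0.0422), and EPB42, a membrane skeleton protein of red cells (-1.03 ± 0.29, adjusted p of 0.00843). This mean correlated with A_72_P387123 (r = -0.63, rho = -0.53, adjusted permutation p of 0.000133; r = -0.53 without the 2 farthest pigs and -0.63 as deviations from the group means) and with A_72_P081791 (r = -0.50, rho = -0.49, adjusted p of 0.00414; -0.39 and -0.30). Within the 4 slides of 7 or 8 arrays r with A_72_P387123 was -0.24, -0.98, -0.82 and -0.83. With this mean as a covariate, the HS minus TN difference was 0.05 for A_72_P387123 (adjusted p of 0.776) and 0.18 for A_72_P081791 (adjusted p of 0.476), and 2 probes of the array passed. The unadjusted permutation p for r and rho were 5e-05 and 0.00128 for A_72_P387123 and 0.0019 and 0.00349 for A_72_P081791. By group, the red cell mean was highest in F1 TN pigs (11.05) and lowest in F1 HS pigs (10.07). By mean brightness of the arrays, F1 TN was lowest (7.21) and F1 HS highest (7.88). The relation of this or any other marker list to the brightness was not tested, and no fit held brightness and red cell markers together.

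T cell markers were related to A_72_P387123 and A_72_P081791 with the other sign. Their mean ranged from 8.79 to 9.92 in TN pigs and from 8.79 to 9.78 in HS pigs. It correlated with A_72_P387123 at r = 0.64 (rho = 0.52, adjusted permutation p of 8e-05; 0.68 without the 2 farthest pigs) and with A_72_P081791 at r = 0.62 (rho = 0.58, adjusted p of 0.000168; 0.54 without these pigs), and within the 4 slides r was 0.67, 0.67, 0.51 and 0.71 for the former and 0.35, 0.19, 0.77 and 0.84 for the latter. The unadjusted permutation p for r and rho were 2e-05 and 0.00168, and 7e-05 and 0.00034. Of the 10 T cell markers measured, CD5, CD4 and CD2 were higher in HS and none was lower, against 20.1% higher and 14.7% lower over all probes. Among markers that did not pass, 2 of 3 probes of CD3D, 2 of 4 of LCK and 1 of 3 of CD8B passed as higher. None of the T cell probes passed as lower. Of the 5 B cell markers, MS4A1 and CD79B were higher and none was lower, and their mean (9.12 to 10.30 in TN, 9.35 to 10.51 in HS) correlated with A_72_P387123 at r = 0.62 (rho = 0.54, adjusted permutation p of 0.00012). Their unadjusted permutation p were 4e-05 and 0.00099, and r was 0.56 without the 2 farthest pigs. Against the same shares of all probes, the monocyte marker CSF1R was higher and, of 7 cytotoxic cell markers, KLRK1 and GNLY were lower. None of the 7 platelet and 7 neutrophil markers passed by the probe with the highest mean. Among other probes, 1 of 3 of the neutrophil marker MMP9 passed as lower and 1 of 2 of the monocyte marker FCGR1A as higher. The mean of the neutrophil markers correlated with A_72_P387123 at r = -0.38 (rho = -0.33, adjusted permutation p of 0.0377, unadjusted 0.022 and 0.0521, and -0.42 without the 2 farthest pigs). For the platelet, monocyte and cytotoxic lists r with A_72_P387123 was -0.08, -0.33 and 0.25, and with A_72_P081791 r was -0.15 for neutrophils, -0.01 for platelets, 0.18 for monocytes, -0.08 for cytotoxic cells and 0.36 for B cells, and none of these 8 relations passed over all pigs. Without the 2 farthest pigs the cytotoxic list passed with A_72_P081791 (r = -0.40, adjusted permutation p of 0.0412), as it did within slide 2 (-0.85, adjusted p of 0.0262). As deviations from the group means the cytotoxic list (0.42, adjusted permutation p of 0.0262) and the monocyte list (-0.41, adjusted p of 0.0302) passed with A_72_P387123. Their means ranged from 7.23 to 8.17 in TN and 7.42 to 8.73 in HS pigs for monocytes, from 8.43 to 9.72 and 8.49 to 9.40 for cytotoxic cells, from 9.53 to 11.40 and 9.40 to 12.19 for platelets, and from 9.97 to 13.54 and 9.73 to 13.65 for neutrophils. The part of these cell types in the CIRBP values was not tested beyond the red cell covariate. All blood cell lists had members well above background on 35 of 35 arrays, so the label of whole blood was borne out, while CD28 was so on 17 and GZMA on 13 arrays.

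**Figure D5:**
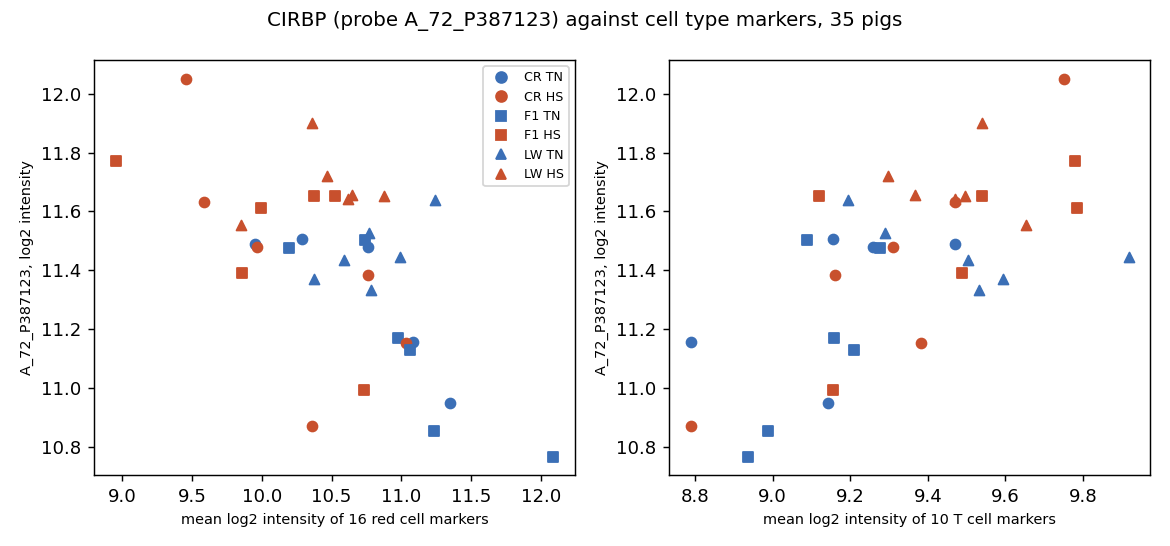
Authors' log2 intensity of A_72_P387123 (y axis) against the mean log2 intensity of 16 red cell markers (left x axis) and 10 T cell markers (right x axis), 1 point per pig; colour gives the climate and shape the breed. The probe decreases with the red cell markers (r = -0.63) and increases with the T cell markers (r = 0.64).

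The genes whose pattern over the 35 pigs was most like that of A_72_P387123 were INPP5K, an inositol phosphatase (r = 0.91), SRSF5, a splicing factor of the SR family (r = 0.91), SGTA, a co-chaperone (r = 0.90), HEMK1, a methyltransferase (r = 0.90), and NTHL1, a DNA glycosylase (r = 0.89). The most opposite were the transcription factors XBP1 (r = -0.81) and E2F4 (r = -0.80). For A_72_P081791 the most similar were PIGV, an enzyme of GPI anchor synthesis (r = 0.89), YIPF5, a protein of vesicle transport (r = 0.88), SAMHD1, which degrades deoxynucleotides (r = 0.88), FCGRT, a receptor for IgG (r = 0.86), and MED7, a Mediator subunit (r = 0.86). The most opposite were RNF169, a ubiquitin ligase (r = -0.90), and SAMD4B, an RNA binding protein (r = -0.85). No gene was on both lists. These likenesses share the arrays and their brightness and are given as a description. In total 461 probes had r above 0.8 with A_72_P387123 and 104 with A_72_P081791.

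Genes known to act upstream of CIRBP were examined through the probe with the highest mean of each gene. Of the 5 measured, 3 were lower in HS, none was higher and 2 did not pass, against 14.7% and 20.1% of all probes. CLK1, a kinase of splicing factors whose activity responds to temperature, had a log2 difference of -0.28 ± 0.09 (adjusted p of 0.0180 by limma), and all 8 of its probes were negative, of which 1 passed. TRPV4, a warmth-gated ion channel, had -0.42 ± 0.13 (adjusted p of 0.0117), with both probes negative and 1 of them past the threshold. SP1, a transcription factor known to act at the CIRBP promoter, had -1.07 ± 0.22 (adjusted p of 0.00159). The probes of SP1 disagreed, however, since 4 of 5 were positive and 2 of these passed as higher. None of the 6 measured partners of CIRBP passed, with differences from -0.33 for TXN to 0.19 for TNPO1, the importin that carries it into the nucleus. Among their other probes, 2 of 3 probes of the kinase GSK3B passed as higher and 1 of 5 probes of TXN as lower. None of the 4 receptor genes for the extracellular protein passed either (TLR4, LY96, TREM1 and IL6R, from -0.42 to 0.20).

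The clock genes and the cold shock domain proteins, which are a separate family of RNA binding proteins, were considered next. Of 8 clock genes measured, 2 were lower in HS and none was higher, against 14.7% and 20.1% of all probes. NR1D1, a repressor of the clock loop, had -0.18 ± 0.06 (adjusted p of 0.0151 by limma). Its probe was dim, with a mean log2 intensity of 5.26, below the 5.92 of O7574. CRY2 had -0.61 ± 0.15 (adjusted p of 0.00410), but the second of its 2 probes was positive. Of 5 cold shock domain genes 1 was higher and 2 were lower, against the same shares. YBX1 was higher (0.31 ± 0.06, adjusted p of 0.00159), YBX2 was lower (-0.35 ± 0.13, adjusted p of 0.0325) and YBX3 was lower (-0.31 ± 0.11, adjusted p of 0.0280). The second probe of YBX3 was positive.

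Heat-induced chaperones are known to respond to temperature in the opposite direction to the cold-inducible proteins. The list of 10 measured genes held such chaperones and HSF1, their transcription factor. In HS 3 chaperones were higher, HSF1 was lower and 6 genes did not pass, against 20.1% higher and 14.7% lower over all probes, with a median log2 difference of 0.07. Among the genes that did not pass, 3 of 5 probes of DNAJB1 and 3 of 21 of HSPD1 passed as higher and none as lower. HSPB1, a small heat shock protein, had 0.41 ± 0.11 (adjusted p of 0.00723 by limma). HSP90AA1, the inducible HSP90, had 0.38 ± 0.10 (adjusted p of 0.00702), with all 8 probes positive, of which 3 passed. HSF1 had -0.34 ± 0.09 (adjusted p of 0.00521). HSP90AA1 and CIRBP probe A_72_P081791 were both higher in HS pigs, while the other named probe, O7574, did not pass (-0.08, adjusted p of 0.467 by limma). The call of A_72_P081791 was lost without F1 pigs and with array brightness or the red cell markers as a covariate.

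RBM3 belongs by name to the RBM genes, which share the RNA recognition motif and little else. Among the expressed probes, 29 other genes had such names. Genes with such names on the array but with no expressed probe were not counted. Of these 9 were higher in HS, 3 were lower and 17 did not pass, against 20.1% higher and 14.7% lower over all probes. The median log2 difference was 0.09 against 0.06 over all probes. Among the genes that did not pass, 2 of 4 probes of RBM5 passed as higher and 1 of 4 of RBM8A as lower. The largest changes were RBM48 (-0.47 ± 0.10, adjusted p of 0.00197 by limma), RBMX (-0.44 ± 0.13, adjusted p of 0.00869) and RBM17, a splicing factor (0.41 ± 0.09, adjusted p of 0.00258). For RBMX 8 of 9 probes were positive, against the sign of the probe with the highest mean. RBM4 and RBM4B, both among the 9, are near-identical copies, and their probes may share signal. The probe with the largest signal of a gene thus did not always stand for its other probes, in these genes as in CIRBP.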

How the data were processed

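Each pig had 1 one-colour Agilent array, scanned per the file headers with Feature Extraction 10.10.1.1. In the deposited scanner files, median and processed intensity are not normalized between arrays. The authors deposited a log2 table of 39072 expressed probes, obtained by quantile normalization of the median intensity. Values recomputed here correlated with it at 0.999971. All of its columns matched a sample, and groups came from the labels. Pen, slaughter day and parents were not given in the labels, so the mixed model of the study could not be fitted. The log2 values were fitted with limma 3.58.1 in R 4.3.3, with breed and climate for HS minus TN and breed contrasts, and with group means for effects within and between breeds. P-values were adjusted over all probes (Benjamini-Hochberg) at 0.05. Relations across pigs used 100000 two-sided permutations in Python 3.11.15, or all orders of the pigs within slides. The fits were tested on simulated data with independent noise for each probe and array. The simulation held no effect of pen, slaughter day, brightness or cell mixture, so it cannot show whether the calls hold under these. Every other gene was represented by its probe with the highest mean, and up to 3 genes per list past the threshold with the largest change were named, with the 5 most and 2 least similar genes for A_72_P387123 and A_72_P081791. Members, gene lists and tests were chosen with earlier results of these data known. Alternatives changed the scaling, background correction, filter, slide block, array weights and covariates or left out pigs. The number of arrays limits the precision. For monocytes, 1 marker is not reported here.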

Additional observations from a re-analysis of the deposited data

Results flagged for a closer look

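Of 24 groups of probe values examined for a pig far from the rest of its group (4 probes and 6 groups of 5 or 6 pigs), 2 held one. Both concern A_72_P285464, the near copy of O7574. CR HS replicate 1 had a log2 intensity of 6.139 while the other 5 CR HS pigs lay between 5.576 and 5.782. LW HS replicate 1 had 6.291 while the other 5 LW HS pigs lay between 5.862 and 6.014. Both were on slide 1. Chance flags about 5% of such groups. Without LW HS replicate 1 the HS minus TN difference of A_72_P285464 over all pigs was -0.20 with an adjusted p of 0.0458 (limma), against -0.17 with an adjusted p of 0.0943 with this pig.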

How the results depend on the processing

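No paired analysis was possible because the labels give neither litter nor replicate number, and the numbers used here follow the order of the records. With the red cell markers as a covariate the log2 difference of HS minus TN was 0.178 for A_72_P081791 and 0.0518 for A_72_P387123, neither past the threshold, with 2 probes of the array past it instead of 13601. In F1 pigs it was 0.512 for A_72_P081791 and -0.262 for O7574 (adjusted p of 0.130 and 0.281), in CR pigs -0.0432 for A_72_P387123, and F1 minus CR was 0.00161 for A_72_P387123; 3255 probes passed in F1 pigs instead of 15108. With array brightness as a covariate HS minus TN was 0.179 for A_72_P081791, 0.172 for A_72_P387123 and 0.0239 for O7574, with 6706 probes past the threshold. In F1 pigs it was 0.270, -0.0399 for O7574 and 0.00735 for A_72_P285464, with 0 probes past the threshold. F1 minus CR was then 0.0316 for A_72_P387123 and -0.0322 for O7574, F1 minus LW -0.0342 and F1 minus mid-parent -0.0332 for O7574. Without F1 pigs HS minus TN was 0.141 for A_72_P081791, 0.174 for A_72_P387123 and 0.0505 for O7574, with 0 probes past the threshold by limma and 6845 at an unadjusted p below 0.05. In F1 pigs A_72_P387123 passed with scaling on the 75th percentile (0.419), the slide as a block (0.402) and array weights (0.415), while O7574 did not pass with no filter on dim probes (-0.339, adjusted p of 0.0593). With array weights HS minus TN in LW pigs was 0.0394 for A_72_P081791 and -0.00676 for A_72_P285464, and F1 minus LW was -0.0291 for O7574. It was -0.0135 with the slide as a block, and A_72_P285464 in LW pigs was at -0.00865 with scaling on the 75th percentile. Array weights called 1111 probes in LW pigs instead of 0, and 1097, 161 and 54 for CR minus LW, F1 minus CR and F1 minus LW instead of 421, 72 and 10. For F1 minus LW the other settings of scaling, filter, background and slide gave 1 to 6 probes, and the red cell and brightness covariates 33 and 23. Within slide 1 HS minus TN was -0.0400 for A_72_P387123 and 0.121 for O7574. The cause of these changes was not tested.

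Leaving out 1 pig at a time, HS minus TN ranged from 0.293 to 0.401 for A_72_P081791 and from 0.205 to 0.275 for A_72_P387123. In F1 pigs it ranged from 0.286 to 0.467 for A_72_P387123 and from -0.384 to -0.248 for O7574, in CR pigs from -0.0130 (without CR HS 5) to 0.223 for A_72_P387123, and in LW pigs from -0.180 to 0.117 (without LW TN 3) for A_72_P081791 and from -0.0137 (without LW HS 1) to 0.0881 for A_72_P285464. F1 minus CR ranged from -0.0963 to 0.0219 for A_72_P387123, and for O7574 F1 minus LW ranged from -0.0370 to 0.0726 and F1 minus mid-parent from -0.00746 to 0.0951. The count of probes past the threshold ranged from 0 to 19 for F1 minus LW and from 16 to 32 for F1 minus mid-parent. Relations that changed sign were all short of the threshold in both settings. Platelet markers with A_72_P387123 had r = 0.132 without the 2 farthest pigs, 0.0916 with scaling on the 75th percentile and 0.553, 0.0701 and 0.177 within slides 2, 3 and 4, and with A_72_P081791 0.00462 and 0.835 within slides 1 and 2. Cytotoxic markers with A_72_P081791 had 0.0931 as deviations from group means and 0.305 and 0.101 within slides 3 and 4, and with A_72_P387123 -0.140 within slide 2. Within single slides r was 0.178 for monocyte markers with A_72_P387123 (slide 4), 0.586 for neutrophil markers with A_72_P081791 (slide 2) and 0.347 for O7574 with A_72_P387123 (slide 1).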
